A study of Saccharomyces cerevisiae with 232 samples.

Results

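The 16 codons beginning with A were taken from the deposited codon table of a yeast ribosome profiling study, where they stood among 61 sense codons. They were chosen by that letter and not by a measured value, although earlier results of these data were known. They encode lysine, asparagine, threonine, arginine, serine, isoleucine and methionine. Each had a value at the A, P and E sites of the ribosome in 13 footprint libraries of the wild type BY4741 and in 2 of each of 57 deletion strains, kti13D with 1. A value is the log2 ratio of the codon's frequency at that site of the footprints to its frequency in wild type, so that 0 is the wild-type level, a positive value means more footprints with the codon at that site relative to other codons, and all changes below are on this scale.

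Every strain was Saccharomyces cerevisiae in rich medium (YPD) at 30 °C, exposed to cycloheximide at 100 µg/mL for 30 s, wild type included, and each strain lacked the gene it is named for (elp3D lacks ELP3). No label states that the libraries of a strain were grown apart, so a p-value here reflects only the spread between libraries, which may be technical. The deletions included elp2D to elp6D, kti11D, kti12D and kti13D (Elongator and its partners), urm1D, uba4D, tum1D, ncs2D and ncs6D (wobble thiolation), trm9D and trm112D (wobble methylation), bud32D, gon7D and cgi121D (the KEOPS complex), sit4D, sap185D and sap190D (a phosphatase and its partners), and isu1D, isu2D, mod5D, rit1D, rtt10D, tad1D and tan1D. The others were dus1D to dus4D, pus1D to pus5D, pus7D, pus9D, trm1D to trm4D, trm7D, trm8D, trm10D to trm13D, trm44D, trm82D, trm140D, trm732D, tyw1D, tyw3D and tyw4D.

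A codon enters the ribosome at the A site, where it is read by a tRNA whose anticodon pairs with it, passes to the P site, where that tRNA carries the growing peptide, and leaves through the E site. All tRNAs that read codons beginning with A share a position 37 adenosine next to the anticodon, which KEOPS is known to convert to threonylcarbamoyladenosine. Elongator and Trm9 with Trm112 build the side chain of the modified wobble uridines, those that read AAA and AGA among them. The Urm1 pathway adds a thiol to the wobble uridine of the lysine tRNA that reads AAA, and to those of glutamine and glutamate tRNAs, but not to that of the arginine tRNA that reads AGA. Codons ending in U and C of isoleucine and threonine are read by inosine, and those of asparagine and serine by a guanosine at the wobble position.

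In the RefSeq annotation of R64, the build of sacCer3, 87 nuclear tRNA genes carried the 12 anticodons that read these codons, and they fell into 13 families with the initiator methionine tRNA apart. The families that the results turn on are shown as spliced gene sequences, 5′ to 3′ without the CCA end, with the anticodon in capitals. They are given because AAA and AAG, AGA and AGG, and AUA and the other isoleucine codons have cognate tRNAs with different anticodons. By contrast AGC and AGU, and likewise AUC and AUU, share a molecule. Whether the tRNA of a codon ending in A also reads the codon ending in G was not tested.
tRNA-Lys reading AAA, chrIV:359577-359672, plus strand, 7 genes: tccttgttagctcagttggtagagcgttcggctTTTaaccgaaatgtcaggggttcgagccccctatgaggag
tRNA-Lys reading AAG, chrIII:151284-151356, minus strand, 14 genes: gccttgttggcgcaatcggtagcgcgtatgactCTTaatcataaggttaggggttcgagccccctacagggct
tRNA-Arg reading AGA, chrII:405878-405949, plus strand, 11 genes: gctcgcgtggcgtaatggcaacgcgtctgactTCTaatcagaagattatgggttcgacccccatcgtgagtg
tRNA-Arg reading AGG (HSX1), chrX:538555-538626, plus strand, 1 gene: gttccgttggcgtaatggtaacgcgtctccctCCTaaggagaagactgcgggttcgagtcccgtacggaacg
tRNA-Ser reading AGC and AGU, chrVI:191513-191613, minus strand, this sequence in 2 of 3 genes: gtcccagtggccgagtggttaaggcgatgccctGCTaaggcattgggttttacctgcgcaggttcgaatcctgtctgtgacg
tRNA-Ile reading AUA, chrIV:884361-884493, plus strand, this sequence in 1 of 2 genes: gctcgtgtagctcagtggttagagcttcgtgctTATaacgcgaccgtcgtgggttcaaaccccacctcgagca
tRNA-Ile reading AUU and AUC, chrII:197494-197567, plus strand, 13 genes: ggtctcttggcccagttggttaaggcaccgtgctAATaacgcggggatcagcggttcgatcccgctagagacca
Elongator tRNA-Met (EMT1), chrIV:1175829-1175901, plus strand, 5 genes: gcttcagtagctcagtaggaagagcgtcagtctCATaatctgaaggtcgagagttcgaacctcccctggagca
Initiator tRNA-Met, chrIII:149920-149991, plus strand, 5 genes: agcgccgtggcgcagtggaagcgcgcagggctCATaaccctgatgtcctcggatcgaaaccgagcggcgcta

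The deleted gene's footprint density lay below that of every wild-type library in every strain library, and under 10% of the wild-type median in all but 4. Those were libraries 1 and 2 of ncs6D, at 26.4% and 11%, library 1 of ncs2D, at 10.1%, and library 2 of pus5D, at 12.3%. Library depth, recovered from the deposited densities, ran from 0.799 to 16.3 M reads with a median of 3.09 M, and library 2 of trm112D was the shallowest. The wild-type columns averaged a ratio of 1 within 3 sets of libraries, which shows that the authors normalised each set of strains to its own wild-type libraries; sets 1, 2 and 3 held 11, 39 and 6 strains and 6, 3 and 4 wild-type libraries. Both libraries of dus2D belonged to none of the sets, so dus2D is described without a test. Over the 16 codons, wild-type values ran from -0.10 to 0.09 at the A site, from -0.09 to 0.12 at the P site and from -0.06 to 0.06 at the E site. The pooled SD between the libraries of a strain was 0.0476, 0.0456 and 0.0308 at these sites.

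Changes on codons beginning with A were called in 43 of the 56 strains. A change is called here when its p from limma's linear model, with strain and processing set as terms and Benjamini-Hochberg adjustment over all codons, sites and strains, is below 0.05. Each SE comes from that model, which pools the spread over all libraries of the fit, so it does not reflect how far the libraries of 1 strain lie apart. The spread differed between sets: over all codons at the A site, the wild-type residual SD was 0.0287, 0.0755 and 0.0456 in sets 1, 2 and 3. At the A site 39 of 896 codon and strain pairs were called higher (4.35%) and 65 lower (7.25%), against 8.67% and 6.53% over all 61 codons. At the P site 66 were higher and 67 lower, against 8.28% and 6.24% over all codons, and at the E site 27 were higher and 24 lower, against 2.25% and 3.40%. The median size of a change was 0.0386, 0.0438 and 0.0215 at the A, P and E sites, beside 0.046, 0.0411 and 0.0234 over all codons. The P-site count rests partly on the wild-type reference: with the strains of a set as each other's reference in sets 1 and 2, it fell to 77. Of the 56 strains, 33 had at least 1 call at the A site, 32 at the P site and 22 at the E site. The matching numbers of strains, with or without a call, over all 61 codons were not counted. No call was made at any site in 13 strains, among them rit1D, trm7D, mod5D and pus7D. The most were made in trm112D, with 29 of 48 codon and site features against 49.7% of all features, and in gon7D, with 20 against 45.4%. Those of bud32D were 17 against 35.5%, of trm1D 17 against 36.6%, of sit4D 16 against 32.8% and of trm140D 14 against 8.74%.

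Lysine codon AAA rose at the A site when the wobble uridine pathway was cut, most in the thiolation strains. In wild type, its 13 A-site values ran between -0.06 and 0.05. The libraries of ncs2D, which lacks a subunit of the thiolase, stood at 0.48 and 0.30, and those of ncs6D, which lacks the other subunit, at 0.33 and 0.39. In urm1D, which lacks the sulfur carrier, the values were 0.28 and 0.49, and in uba4D, which lacks its activating enzyme, 0.33 and 0.41. All of these lay above every wild-type library, and the changes were 0.39 ± 0.05 (SE, n = 2, limma adjusted p = 5.756e-09) in ncs2D, 0.36 in ncs6D, 0.39 in urm1D and 0.37 in uba4D, the first a 1.31-fold higher occupancy. The exception in size was tum1D, which lacks a sulfurtransferase that feeds Urm1, at 0.06 and 0.25; its change was 0.16 ± 0.05 (SE, n = 2, limma adjusted p = 0.02809) and the call was lost under 7 of 25 alternative settings. Over the 48 codon and site features together, its libraries differed more from each other than those of any other strain.

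The 9 strains of Elongator and its partners showed the same rise of AAA at the A site at a lower level. Their change averaged 0.22 (SD 0.0534, n = 9 strains), with 0.12 in kti12D, the lowest, and 0.28 in elp5D, and all 17 libraries lay above the wild-type libraries, the lowest at 0.10. Of the 9, 8 were called; kti12D had 0.13 and 0.10 with an adjusted p of 0.1213 from limma, and the call of kti13D, with its lone library, was lost under 12 of 25 settings. Beside this, elp3D, which lacks the catalytic subunit, stood at 0.24 and 0.28, with a change of 0.26 ± 0.04 (SE, n = 2, limma adjusted p = 7.7e-06). The thiolation mean of 0.33 (SD 0.1, n = 5 strains) exceeded the Elongator mean by 0.11. The 95% interval of the Elongator minus thiolation difference ran from -0.16 to -0.06 (limma adjusted p = 0.0008424 over all codons and sites). This interval, like every p of a pathway mean or difference from that fit, reflects the spread between libraries and not that between strains. The difference was not tested with 1 value per strain. Ordered by size, AAA at the A site was highest in ncs2D, urm1D, uba4D and ncs6D, whose values differ by less than their SE, followed by trm112D at 0.33.

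AGA, an arginine codon read by a wobble uridine with the side chain but without the thiol, moved the other way from AAA at the A site in the Elongator strains. It was called lower in all 9 Elongator strains, with a mean of -0.13 (SD 0.032), with -0.092 in elp3D and the lowest, -0.18, in elp6D, and all 17 libraries were below 0. The elp6D libraries, which differed little, stood at -0.16 and -0.20, a change of -0.18 ± 0.03 (SE, n = 2, limma adjusted p = 2.459e-06). In the thiolation strains AGA was called lower in 3 of 5, with a mean of -0.08, 0.05 less far from 0 than in the Elongator strains (limma adjusted p of the difference 0.01264). Those calls, in ncs6D, uba4D and tum1D, were lost with the strains of the set as reference, and those of elp3D, elp5D and kti13D, among others, with each library centred. AGA was not lower in these pathways alone, and was called lower at the A site in 18 of the 56 strains. Its median was -0.038 over all strains and -0.10 over set 3. It was called lower in gon7D, at -0.11, in bud32D, and in trm9D, at -0.091, the one call of trm9D on these codons. AAG, cognate to the other lysine tRNA, was lower too, with a mean of -0.11 in the Elongator strains (5 of 9 called). Its mean in the thiolation strains was -0.07 and was called (limma adjusted p = 0.01648), with none of the 5 strains called. The AAG call of elp5D was lost under 8 of 26 settings, and those of elp4D and kti12D under 3. The A-site median of AAG was -0.045 over all strains and -0.11 over set 3.

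Of the 48 codon and site features, the Elongator mean was called at 22, or 45.8% (11 higher, 11 lower), against 50.8% of all features, and the thiolation mean at 9, or 18.8% (4 higher, 5 lower), against 20.8%. The difference between the pathways was itself called at 3 of the 48, against 8.20% of all features: AAA and AGA at the A site, and threonine codon ACA at the P site. ACA at the P site was 0.11 in the Elongator mean and 0.013 in the thiolation mean. A uridine is also encoded at the wobble position of the tRNA that reads isoleucine codon AUA, whose anticodon Pus1 modifies. AUA was called at the A site in neither mean, with -0.049 and 0.014. At the P site it was higher in both, at 0.11 and 0.086. Its highest P-site value of all strains was in kti11D, a partner of Elongator, with 0.23 and 0.33 and a change of 0.28; kti11D had 12 of 48 features called, against 24.6% of all features. At the P and E sites AAA had Elongator means of 0.024 and 0.056, the second called, and thiolation means of 0.0014 and 0.029, neither called. The A-site change of AAA beyond the mean of its P-site and E-site changes was called in 7 of the 9 Elongator strains and in all 5 thiolation strains, and over all strains 48 such excesses of the 16 codons were called higher and 64 lower, against 9.48% and 7.23% of all codons. With the strains of a set as reference, the count of the thiolation mean fell from 9 to 1, while its AAA value at the A site was 0.31 and stayed called (limma adjusted p = 1.199e-12); that of the Elongator mean fell from 22 to 14, with AAA at 0.20.

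The strain trm112D, which lacks a small protein that activates Trm9, Trm11 and other methyltransferases, had more called changes on codons beginning with A than any other strain. AAA rose at the A site as in the thiolation strains, with 0.328 and 0.333 in its libraries, whereas trm9D, which lacks the wobble methyltransferase itself, stood at 0.07 and 0.16 (change 0.12, limma adjusted p = 0.1005). All 4 codons with U in the middle rose together at the A site in trm112D. AUA, read by a minor isoleucine tRNA, stood at 0.34 and 0.39, AUC at 0.28 and 0.32, AUU at 0.28 and 0.31, and methionine codon AUG at 0.28 and 0.36. Their changes were 0.37 ± 0.07, 0.30 ± 0.04, 0.29 ± 0.05 and 0.32 ± 0.05 (SE, n = 2), with limma adjusted p of 1.719e-05, 1.322e-08, 1.657e-06 and 1.056e-07. No other strain had AUG called at the A site. At the E site AUC fell by 0.22 and AUU by 0.20 in trm112D, and the asparagine codon AAC fell by 0.22 at the A site, with -0.15 and -0.29. The arginine and lysine codons fell at its P site: AGG by 0.44, AGA by 0.38, AAG by 0.29 and AAA by 0.21, while ACA rose by 0.27. Both libraries of trm112D lay close to each other on these, at -0.4446 and -0.442 for AGG and at -0.3851 and -0.3813 for AGA, although library 2 held 0.799 M reads.

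The difference of trm112D from trm9D was called at 27 of 48, against 51.9% of all features, among them all 4 codons with U in the middle at the A site and AGG at the P site, 0.50 lower in trm112D. The mean of trm9D and trm112D was called at 30 of the 48, against 47% of all features, and without trm112D, leaving trm9D, at 1. The mRNAs that carried footprints also differed in trm112D. From the deposited footprint densities and the coding sequences, the codon usage of the footprinted mRNAs alone gave expected changes of 0.41 for AUA, 0.24 for AAA and 0.36 for AGG, but of 0.014 for AUU, -0.10 for AUC and 0.012 for AUG. The part of mRNA composition in the A-site values was not tested; at the P site AUA was at -0.079 and AGG at -0.44, and at the E site AUA was at -0.11.

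Some of the P-site falls of trm112D were also seen in trm11D, which lacks the catalytic partner of Trm112 for the methylated guanosine at position 10. All 13 families have a guanosine there. In trm11D AAG stood at -0.24 and -0.28 at the P site, a change of -0.26 ± 0.03 (SE, n = 2, limma adjusted p = 3.606e-09), AAA fell by 0.21 and AGA by 0.20, while AGG had libraries at -0.24 and -0.13 without a call (limma adjusted p = 0.1003). No A-site or E-site feature was called in trm11D, and its 7 of 48 stand against 10.9% of all features. The difference between trm112D and trm11D was called at 28 of 48, against 54.1% of all features; AAG and AAA at the P site were not among these, and AGA and AGG were, 0.18 and 0.26 lower in trm112D. Other P-site changes were not shared: AGU fell by 0.12 in trm112D and rose by 0.13 in trm11D, a called difference of -0.24. AAC fell by 0.11 in trm11D but was at 0.012 in trm112D, also a called difference, and AAU fell by 0.12 in trm11D beside -0.050 without a call in trm112D.

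Strains without KEOPS subunits, whose product is the modification all 13 families share, had lower occupancy of most of these codons at the A and P sites. Of the 16 codons, the KEOPS mean was called lower at 11 at the A site and 10 at the P site, and higher at none of either. Over all 3 sites 24 of 48 were called, against 54.6% of all features, and over all 61 codons at the A site 24 were higher and 21 lower, with a median change of 0.044 beside -0.089 for the 16. At the P site, 22 of the 61 codons were higher and 15 lower, with a median of 0.012 beside -0.083. The KEOPS strains share the wild-type libraries of set 3 with elp5D, kti13D and trm9D, and some A-site falls were seen there too. AGA was called lower in each of those strains, at -0.091 in trm9D beside a KEOPS mean of -0.079, and AAG was called lower in elp5D. AGC, in contrast, was at 0.026 in trm9D. AGC, a serine codon, fell most at the A site in bud32D, which lacks the kinase, at -0.26 and -0.27, and in gon7D at -0.22 and -0.26. Those changes were -0.26 ± 0.03 (SE, n = 2, limma adjusted p = 1.462e-12) and -0.24 ± 0.03 (adjusted p = 3.225e-11), whereas cgi121D, at -0.03 in each library, was within the wild-type range. Among lysine codons AAG fell by 0.18 in gon7D and 0.14 in bud32D, and AAA was at -0.15 in bud32D, -0.14 in gon7D and -0.12 in cgi121D, the first 2 called, and these calls were lost under 4 and 8 of 26 settings. That mean of -0.135 for AAA rests more on library 1, since with library 2 of each strain alone it was -0.079. The isoleucine codons fell in gon7D by 0.17 to 0.19, the call of AUA being lost under 15 of 26 settings, and the asparagine codon AAU, at 0.07 and 0.12 there, was not called.

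Methionine codon AUG showed a P-site fall in every KEOPS strain. Its libraries stood at -0.29 and -0.42 in gon7D, -0.29 and -0.40 in bud32D, and -0.24 and -0.29 in cgi121D, all below the lowest wild-type value of -0.0936. The other strains of set 3, elp5D, kti13D and trm9D, which share their wild-type libraries, had changes of 0.012 to 0.028 without a call. The changes were -0.35 ± 0.04, -0.35 ± 0.04 and -0.26 ± 0.04 (SE, n = 2), with limma adjusted p of 2.406e-09, 4.094e-09 and 5.124e-06. AUG is also the start codon, which lies in the P site at initiation, and whether footprints on start codons were counted is not given in the sources used here. At the A site AUG was called in none of the KEOPS strains, with -0.067, 0.017 and 0.056 in gon7D, bud32D and cgi121D. AAC fell at the P site in each of the KEOPS strains too, by 0.24 in gon7D, 0.16 in bud32D and 0.18 in cgi121D, while at the E site AUC and AUU rose by 0.094 to 0.13 in each, the AUC call of cgi121D being lost under 6 of 26 settings. The mean of bud32D and gon7D was below cgi121D at 7 of 48 features and above it at none, against 14.8% of all features, with AGC lower by 0.22 at the A site and 0.20 at the P site. The calls of cgi121D were 7 of 48, against 14.2% of all features. From mRNA composition alone, AGC was expected at 0.16 in bud32D and in gon7D; the part of mRNA composition in these values was not tested.

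Deletion of SIT4, the phosphatase that acts on Elongator, left AAA without a call at the A site, at 0.049 and 0.016 in sit4D. AGG, whose cognate tRNA comes from the lone gene HSX1, stood at 0.21 and 0.27 at the A site in sit4D. This was a change of 0.24 ± 0.04 (SE, n = 2, limma adjusted p = 2.638e-05), the highest of AGG in any strain. The asparagine codons fell there by 0.20 (AAU) and 0.17 (AAC), AAG by 0.18, and the isoleucine codons AUU and AUC by 0.17 and 0.14, and AUU and AUC rose by 0.12 at the E site. The strain sit4D differed from the mean of sap185D and sap190D, which lack regulatory partners of Sit4, at 19 of 48, against 44.3% of all features. The mean of the Sit4 strains was called at 8 of 48, against 19.1% of all features, and at 0 without sit4D or with the strains of the set as reference.

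The serine codons AGC and AGU had called P-site changes in deletions of enzymes that modify other positions of serine tRNAs than the wobble base. Such calls were not limited to these deletions. Over the 56 strains AGC was called higher in 5 and lower in 4 at the P site, and AGU higher in 8 and lower in 3. Among them, AGC stood at -0.22 in bud32D and -0.19 in trm112D, and AGU was called higher in 3 Elongator strains. In trm140D, which lacks the enzyme for the 3-methylcytidine of serine and threonine tRNAs, AGC stood at 0.41 and 0.46 at the P site and AGU at 0.35 and 0.34. The changes of 0.44 ± 0.04 and 0.34 ± 0.03 (SE, n = 2, limma adjusted p = 8.608e-14 and 1.573e-12) were the highest of any strain for these codons. All 4 threonine codons rose at the P site as well, by 0.21 (ACA), 0.24 (ACC), 0.26 (ACG) and 0.21 (ACU), and so did AGG, by 0.23, but AGA, at -0.02 and -0.05, was not called. At the A site the directions split: AGC fell by 0.23 and AGU by 0.17, whereas ACC rose by 0.15 and ACU by 0.16, and ACA and ACG were at 0.068 and 0.11 without a call. The 14 calls of trm140D stand among 16 over all codons and sites. All 13 families carry a cytidine at position 32, where the enzyme acts.

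Opposite P-site changes of the serine codons were seen in trm44D, which lacks the enzyme for the 2′-O-methyluridine of serine tRNAs. AGC stood at -0.31 and -0.30 and AGU at -0.24 and -0.23, changes of -0.30 ± 0.04 and -0.23 ± 0.03 (SE, n = 2, limma adjusted p = 2.402e-08 and 3.215e-07). The printed serine tRNA is the one family of the 13 with a uridine at position 44, where that group is placed. In trm44D the A-site change of AGC was -0.050 and no other codon beginning with A was called at the A or P site. In tan1D, which lacks a protein for the acetylcytidine of serine and leucine tRNAs, AGC and AGU rose by 0.26 and 0.24 at the P site and fell by 0.16 each at the A site, where ACG rose by 0.14 and ACU by 0.12, while AAA, AGA and AUA fell at the P site by 0.13, 0.10 and 0.14. For trm4D, which lacks the 5-methylcytidine enzyme of many tRNAs, P-site rises of 0.23 and 0.20 were the 2 calls made on these 16 codons at any site. Its share of calls over all features was not counted. The A-site change beyond the P and E sites was -0.40 for AGC in trm140D and -0.31 in tan1D, both called.

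The strain trm1D, which lacks the enzyme for dimethylguanosine at position 26, had the largest P-site falls of any strain on AGG, AUG and AGA. AGG stood at -0.55 and -0.56, AUG at -0.55 and -0.48 and AGA at -0.37 and -0.42, with no overlap with any wild-type library. These were changes of -0.56 ± 0.07, -0.52 ± 0.05 and -0.40 ± 0.03 (SE, n = 2), with limma adjusted p of 1.5e-08, 1.684e-14 and 9.422e-17. The AGG change is a 0.68-fold occupancy. AAG and AUA fell by 0.18 each at the P site, whereas AAA rose by 0.13 and AGU by 0.17. Of the 13 families 10 have a guanosine at position 26; the isoleucine tRNA of AUU and AUC and the threonine tRNA of ACG have an adenosine, and that of AUA has a uridine in the printed sequence. AUU and AUC were at 0.085 and 0.045 at the P site of trm1D without a call, but asparagine codons, whose tRNA has a guanosine, were at 0.048 (AAU) and 0.046 (AAC) and not called either. At its A site ACA fell by 0.20, with -0.15 and -0.26, AUC rose by 0.12 and AAA by 0.15, and AUG was not called, at 0.01 and -0.12. At the E site AUG rose by 0.12 and AUA fell by 0.12. For trm1D mRNA composition gave expected changes of at most 0.0431 in size over the 16 codons.

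Other strains named by the largest A-site rise of a codon were dus1D and pus3D. In dus1D, which lacks a dihydrouridine synthase of the D loop, ACA rose by 0.20 (0.17 and 0.23) and ACG by 0.18, the highest of both codons in any strain, and AGC fell by 0.089; the ACG call was lost under 5 of 26 settings. Over the 3 sites 11 of 48 features were called in dus1D, against 23% of all features. Asparagine codon AAU rose by 0.19 in pus3D, which lacks a pseudouridine synthase of the anticodon stem, with 0.17 and 0.21, where ACU rose by 0.12 and AGC fell by 0.093. The calls of pus3D were 10 of 48, against 30.6% of all features. Both asparagine codons fell at the A site in pus4D, which lacks the synthase for the pseudouridine of the T arm, AAC by 0.18 and AAU by 0.16. The largest falls were -0.22 in trm112D for AAC and -0.20 in sit4D for AAU, so pus4D was not named by that rule. In pus4D 8 of 48 features were called, against 15.3% of all features. Pus1 modifies several positions including the anticodon of the AUA-reading tRNA; in pus1D AUA was at -0.17 and -0.24 at the P site, a change of -0.20 ± 0.04 (SE, n = 2, limma adjusted p = 0.0002153), the lowest of AUA in any strain, with no call at the A site and 10 of 48 features called, against 13.1%. The P-site value of AUG in rit1D, which lacks the enzyme that marks the initiator tRNA, was 0.07 and -0.04 and was not called. For dus2D, compared with wild type as deposited and with no test, AGU stood at -0.17 and -0.22 and AGC at -0.15 and -0.17 at the A site, and the means of the 48 features ran from -0.19 to 0.10.

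Codons that share a tRNA varied together at the A and P sites over the 56 strains, and so did some with different cognate tRNAs. As a description, with strains that share their wild-type libraries as points, Pearson's r at the A site was 0.94 for AUC and AUU, 0.85 for ACC and ACU, 0.79 for AAC and AAU and 0.76 for AGC and AGU. Lysine codons AAA and AAG, whose cognate tRNAs differ, had an r of -0.09 at the A site and 0.64 at the P site. For arginine codons AGA and AGG it was 0.06 and 0.79. Other codons with different cognate tRNAs had higher values at the A site: 0.74 for ACA and ACG, 0.67 for AUA and AUU and 0.61 for AUG and AUU. At the P site AGC and AGU had an r of 0.91. At the E site the pairs that share a tRNA ranged from 0.255 (ACC and ACU) to 0.92 (AUC and AUU).

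By amino acid, the A-site calls were most frequent on lysine, at 23.2% of pairs, with 15 rises of AAA, and on arginine, at 17.9%, with 18 falls of AGA, beside 15.2% over all 61 codons. At the P site asparagine codons were called lower in 19 pairs and higher in none, with a median of -0.051, and the isoleucine and threonine codons read by inosine were higher in 33 pairs and lower in 6. These are 17% and 17.4% of their pairs, beside 14.5% over all codons. Those P-site directions were also the median of set 2, with -0.050 for AAC, -0.052 for AAU and 0.061 for AUU over its 39 strains, which share 3 wild-type libraries. Set 1, with other wild-type libraries, had medians of -0.021, -0.058 and 0.015. Set 3, where 3 of the 6 strains lack a KEOPS subunit, had -0.11, -0.063 and -0.045, and AUU itself stood lowest in bud32D, at -0.13, then in gon7D at -0.11 and in cgi121D at -0.081. Codons ending in A have a uridine encoded at the wobble position of their tRNAs. At the A site 19.2% of their pairs were called, beside 6.70% of those of codons ending in G and 15.2% over all codons. AAA and AGA carried 17 and 18 of these 43 calls, and ACA and AUA 6 and 2.

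Observed changes were also set beside the codon usage of the footprinted mRNAs. The 16 codons were 33.5% of codons in coding sequences and 31.4% ± 0.0823 (SD, n = 13 wild-type libraries) after weighting by footprint density. Over 912 codon and strain pairs the Pearson r of the expected and observed change was 0.16 at the A site, -0.085 at the P site and -0.053 at the E site, as a description over pairs that share libraries. The median expected change was 0.018 in size. For AAA it ran from 0.013 to 0.15 in the Elongator strains and from 0.017 to 0.054 in the thiolation strains, beside observed mean A-site changes of 0.22 and 0.33.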

How the data were processed

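Codon occupancy was deposited by the authors as log2 values per codon, ribosomal site and library. Footprint and RNA levels per gene were deposited as RPKM, and the authors also deposited a ratio table against wild type. Per the labels' protocols, footprints of 27-34 nt came from RNase I digests and monosome fractions; per the submitters' processing notes, TopHat2 2.0.12, SAMtools, HOMER 4.6 and sacCer3 were used. The rule that places a footprint's sites is not given in the sources used here. The values of 1 strain are not reported here on their own, although it is part of the fit and of the counts and means. Another 14 columns of per-sample values were not used.

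Wild-type columns averaging a linear ratio of 1 gave 3 sets of wild-type libraries, and the deposited ratio, divided into the RPKM values, showed which set each strain was compared with. Values of 56 strains and 124 libraries were fitted with limma 3.58.1 in R 4.3.3, with strain and set as terms, over 61 codons at 3 sites, and p was adjusted by Benjamini-Hochberg over all 10248 tests. Pathway means and differences between strains were contrasts of that fit, adjusted over its features within each contrast. The fit was tested on simulated data. Depth was recovered from RPKM and coding lengths within 0.1 reads. Expected changes weighted the codons of each coding sequence by its RPKM. tRNA genes came from RefSeq.

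Named pairs were the 20 called A-site pairs with the largest changes whose libraries lay on one side of 0, the 10 such at the P site and at the E site, each codon's largest called rise and fall at the A site, and pairs of codon and strain with a known role. Other pairs named for a strain described were chosen after their values were seen. Members, lists and contrasts were chosen with earlier results of these data known. Alternatives were other references and wild-type libraries, centring, a size threshold, 1 value per strain, a replicate block, and libraries or strains left out.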

Additional observations from a re-analysis of the deposited data

Results flagged for a closer look

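Among 96 groups of wild-type libraries (16 codons at 3 sites in the sets of 6 and 4), 6 held a library farther from the others than Dixon's 95% criterion allows, where chance gives about 1 in 20. AUG at the A site was -0.0328 in wild-type library 6, beside -0.0002 to 0.0108 in the other libraries of set 1. In set 3, ACC at the A site was -0.0578 in library 14, beside 0.015 to 0.0257, and AUG at the E site was 0.0466 in the same library, beside -0.0218 to -0.012. Library 11 of set 3 stood apart at the P site for AGA, at 0.0542 beside -0.0209 to -0.014, and for AGU, at 0.105 beside -0.0452 to -0.0323. ACU at the P site was -0.0248 in library 13, beside 0.0059 to 0.0098.

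The Elongator and thiolation means differed by limma at 3 features of the 16 codons, and these were Elongator minus thiolation differences of -0.113 for AAA at the A site, -0.0511 for AGA at the A site and 0.0932 for ACA at the P site.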

How the results depend on the processing

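Calls over all strains are given as a percent of the 896 codon and strain pairs, and were 11.61%, 14.84% and 5.692% at the A, P and E sites and 12.5% for the A-site change beyond the other sites. Leaving out 1 wild-type library, or every strain library of 1 number, gave 8.705% to 14.62%, 9.933% to 16.41%, 4.464% to 7.478% and 9.598% to 19.31%, the last highest without the libraries numbered 2. Counts of the pathway means were 20 to 29 (Elongator), 5 to 18 (thiolation, lowest without wild type 9 and highest without the libraries numbered 2), 24 to 30 (Trm9-Trm112), 21 to 28 (KEOPS) and 0 to 8 (Sit4, 0 without wild type 9). With 1 strain left out they were 21 to 26, 6 to 10, 1 to 32, 21 to 26 and 0 to 13. The AAA means were 0.207 to 0.2328, 0.2976 to 0.3698, 0.2006 to 0.2478, -0.1911 to -0.07885 and -0.04842 to 0.007233 over libraries, and 0.2129 to 0.234, 0.3199 to 0.3783, 0.1174 to 0.3309, -0.145 to -0.1276 and -0.04153 to 0.01397 over strains. Without trm112D the Trm9-Trm112 count was 1 and its AAA change 0.1174 (limma adjusted p = 0.1473). The Sit4 AAA mean, never called, turned to 0.003767 without the libraries numbered 2, 0.007233 without wild type 9 and 0.01397 without sap185D.

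With all wild-type libraries and no set term, calls were 17.86%, 22.88% and 11.94% at the A, P and E sites and 20.42% beyond the other sites, and counts were 22 for thiolation and 15 for Sit4. With the strains of a set as reference they were 8.147%, 8.594% and 4.018% at the A, P and E sites, 14 for Elongator, 1 for thiolation and 0 for Sit4. Centring gave 5 for Sit4, 1 value per strain gave 16 for Trm9-Trm112 and 4 for Sit4, and a size of at least 0.1 gave 2.455% at the E site. The cause was not tested. Smaller moves of other counts under these settings are not listed. Of the named pairs with a call, 57 (39.6%) lost it under at least 1 setting and none reversed. The alternative without stop codons was not run, since the table holds sense codons.

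The numbers 1 and 2 were not taken to pair libraries, by a rule that asked every correlation of library differences between strains to be over 0.1. In set 1, 42 of 55 correlations were over 0.1 and the median was 0.295. In sets 2 and 3 the medians were 0.0824 and 0.303, and the lowest of all was -0.815. That rule cannot exclude a batch shared by libraries of the same number. No label names such a batch, and the main fit has no term for it. In set 1 the wild-type libraries numbered 1 to 3 and 4 to 6 did not overlap at 25 of the 48 features, or 52.1%, against 38.8% of all features. The planned replicate block also dropped the set term and kept only the libraries numbered 1 and 2. It gave 7.924%, 10.27% and 4.688% of pairs at the A, P and E sites, and 17 for KEOPS. For the A-site change beyond the other sites it gave 7.031%, with 8 for Elongator, 3 for thiolation, 16 for Trm9-Trm112 and 3 for Sit4. The same libraries and terms without the block, added after seeing the data, gave 6.585%, 7, 3, 16 and 2, and 7.478% at the A site. A replicate block of strain libraries within each set, also added then, with the set term and every wild-type library kept, gave 24 for Elongator, 12 for thiolation and 10 for Sit4, and no named call was lost.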
